A study of Arabidopsis thaliana with 6 samples.

Results

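The genes described here are 8 Arabidopsis thaliana loci that gave little signal in wild type leaves and a higher signal in leaves of the silencing mutants kyp and cmt3. They were chosen by locus, as genes not described as transposons that stood highest above wild type in kyp or in cmt3, and make up 8 of the 30361 gene models on the array. The choice used the intensities themselves, so their differences from wild type are given as a description and support nothing further. The files describe 6 of the 8 as an unknown protein (AT5G26270, AT3G54730, AT2G16676, AT2G40955, AT2G13450 and AT4G18150), AT5G28235 as a cysteine-type peptidase and AT3G32966 as a pseudogene. RefSeq lists 7 of them as protein coding and AT3G32966 as a pseudogene. "Unknown" therefore holds for 6 of the 8 descriptions.

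RNA was taken from young leaves of kyp mutants, cmt3 mutants and the wild type Col-0, all untreated and grown on soil for 4 weeks in long days. Each genotype had 2 arrays, 6 in all. Neither mutant allele is named in the labels, which leave unsaid whether the paired arrays are of different plants or extracts, so p-values measure only the spread between arrays, which may be technical. By the image names, slide 1 held kyp replicate 1 with the 2 wild type arrays, while kyp replicate 2 shared slide 2 with the 2 cmt3 arrays.

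In plants, the histone methyltransferase KYP, also called SUVH4, methylates lysine 9 of histone H3, and CMT3 is a chromomethylase that binds this mark and methylates cytosines in CHG sites (H stands for A, C or T). The histone methyltransferase in turn binds the methylated DNA, so the marks maintain each other over transposons, repeats and some genes. A gene under this kind of silencing can lie inside or beside a transposon, and loss of either enzyme is known to release a subset of such loci.

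CMT3, the gene mutated in cmt3, stood at a mean log2 intensity of 10.95 ± 0.0245 in cmt3 and 12.60 ± 0.0098 in wild type (SD, n = 2 each), and so fell by 1.65 on the log2 scale (adjusted p = 0.0159, limma). KYP stood at 9.98 ± 0.0896 in kyp and 10.22 ± 0.0348 in wild type, a difference of -0.24 that did not pass (adjusted p = 0.515, limma). Its probes may lie outside the mutated stretch, so this level checks nothing about the kyp label. The 6 leaf photosynthesis markers (such as RBCS1A and LHCB1.3) were among the brightest models on all arrays, at 61904 to 64796. The brightest value of an array was 64915 to 64963, so at this ceiling the markers could hide a difference between genotypes. The 3 pollen markers lay at 30.9 to 78.7 on all arrays, and no marker of seed, pollen, flower or root was called in either mutant. Summed over its 4 genes, the seed list gave 415 to 436 in kyp, 183 to 305 in cmt3 and 321 to 333 in wild type. The pollen list (VGD1, VGDH1 and HTR10) gave 124 to 145 in kyp, 109 to 142 in cmt3 and 139 to 173 in wild type, with the wild type sums reaching highest. The 3 flower genes summed to 831 to 859 in kyp, 587 to 714 in cmt3 and 729 to 816 in wild type. The root gene PYK10 gave 328 to 633 in kyp, 494 to 651 in cmt3 and 215 to 340 in wild type, and the part of root-expressed RNA in the results was not tested. In leaf RNA, a change in the share of cells that express a gene and a change in RNA per cell cannot be told apart.

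In both mutants all 8 genes were brighter than in wild type on every array. The median difference over the 8 was 5.55 on the log2 scale in kyp and 7.07 in cmt3, beside 0.0045 and 0.034 over all 30361 models. Folds ran from 9.12 to 211 in kyp and from 37.8 to 161 in cmt3. The genes fell into 2 patterns by description: 5 stood within 2-fold of each other in kyp and cmt3, and 3 were at least 6.57-fold brighter in cmt3 than in kyp. The kyp and cmt3 comparisons share the same wild type arrays. Of the 8, limma called 7 in kyp and 8 in cmt3 at an adjusted p under 0.05, against 0.0988% and 0.56% of all models called higher. AT5G28235 in kyp was the 1 not called. Another 0.00659% of models were called lower in kyp and 0.181% in cmt3. Between the mutants limma called 2 of the 8, AT3G32966 and AT4G18150, both lower in kyp, against 0.0198% of all models lower, 0.00988% higher and 0.0296% in either direction. All these counts use the arrays by which the genes were chosen, and nothing is read from them.

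**Figure D1:**
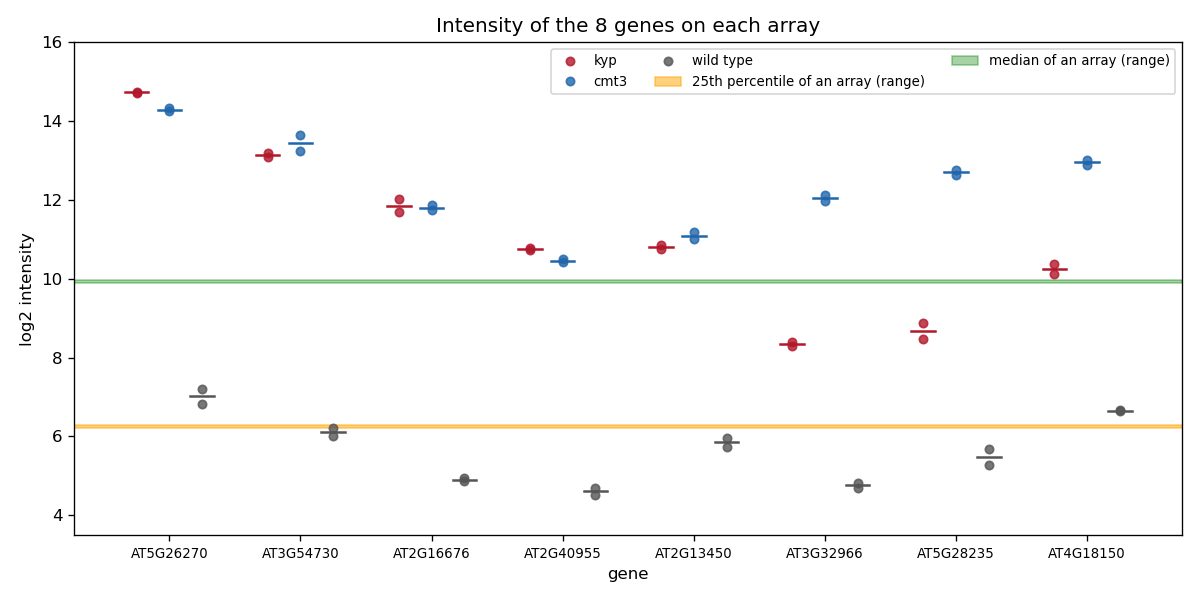
Log2 intensity (vertical axis) of the 8 genes on each array, with kyp, cmt3 and wild type side by side; points are single arrays, short lines are means of 2 arrays, and the bands show the range over arrays of the 25th percentile and the median of all models. The first 5 genes are near level in kyp and cmt3, the last 3 stand higher in cmt3, and the wild type points of 6 genes lie below the 25th percentile; levels of different genes rest on different probes and are not compared.

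The 5 genes of the first pattern were AT5G26270, AT3G54730, AT2G16676, AT2G40955 and AT2G13450. AT5G26270 encodes a protein of unknown function at chr5:9206511-9207515 (Release 6 gene models of the files, as are all positions here) and is read by 3 probes. Its intensity was 27112 and 27415 in kyp, 19501 and 20744 in cmt3, and 148 and 113 in wild type. The 2 kyp arrays were the brightest and did not overlap the cmt3 arrays. It was 211-fold higher in kyp than in wild type (7.72 ± 0.16 on the log2 scale, SE of the limma fit) and 155-fold higher in cmt3 (7.28 ± 0.16).

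AT3G54730, at chr3:20270237-20271400, also codes for an unknown protein and has 4 transcripts in RefSeq. It gave 9444 and 8662 in kyp, 9632 and 12749 in cmt3, and 73.5 and 64.2 in wild type. Both cmt3 arrays lay above both kyp arrays, though the dimmer cmt3 array was close to the brighter kyp array. Its difference from wild type was 7.04 ± 0.18 in kyp (132-fold) and 7.33 ± 0.18 in cmt3 (161-fold), and kyp minus cmt3 came to -0.29 ± 0.18.

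AT2G16676 is the shortest of the 8 models, spanning 657 bp at chr2:7237953-7238609. Its intensity was 3295 and 4191 in kyp, 3737 and 3434 in cmt3, and 30.5 and 29.1 in wild type. The cmt3 arrays lay between the kyp arrays, so the mutants overlapped. It was 125-fold higher in kyp (6.96 ± 0.15) and 120-fold higher in cmt3 (6.91 ± 0.15).

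AT2G40955 lies at chr2:17100171-17102210. The file lists its model as standing for 2 loci, AT2G40955 and AT4G15096, so the signal cannot be assigned to 1 of them. Only 100 of the 30361 models stand for more than 1 locus. It gave 1753 and 1689 in kyp, 1370 and 1454 in cmt3, and 26.0 and 22.8 in wild type. Both kyp arrays lay above both cmt3 arrays, by 0.29 ± 0.11 on the log2 scale, and the folds over wild type were 70.8 in kyp and 58.0 in cmt3. In wild type it lay at the 6.06 and 4.19 percentiles of all models.

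AT2G13450, at chr2:5605821-5607005, gave 1722 and 1860 in kyp, 2048 and 2325 in cmt3, and 53.4 and 62.5 in wild type. The cmt3 arrays were again above the kyp arrays. The difference from wild type was 4.95 ± 0.14 in kyp (31.0-fold) and 5.24 ± 0.14 in cmt3 (37.8-fold), the smallest of the 8 in cmt3. Across these 5 genes kyp minus cmt3 ran from -0.29 to 0.44, and which mutant was brighter differed from gene to gene.

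The 3 genes of the second pattern were AT3G32966, AT5G28235 and AT4G18150, all much brighter in cmt3 than in kyp. AT3G32966 is annotated as a pseudogene of a hypothetical protein and spans chr3:13513904-13517128. Its intensity was 337 and 315 in kyp, 4043 and 4486 in cmt3, and 25.6 and 28.4 in wild type. The 3 genotypes formed 3 separate levels. It stood 12.1-fold above wild type in kyp (3.60 ± 0.12) and 158-fold in cmt3 (7.30 ± 0.12), so kyp minus cmt3 was -3.71 ± 0.12 and cmt3 was 13.1-fold above kyp.

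AT5G28235, at chr5:10201275-10203339, is annotated as a cysteine-type peptidase. Genes for peptidases of this kind are known to be carried by some Mutator-like elements of Arabidopsis. It gave 469 and 352 in kyp, 6402 and 6965 in cmt3, and 38.5 and 51.5 in wild type. Again no genotype overlapped another. It was 9.12-fold above wild type in kyp (3.19 ± 0.22) and 150-fold in cmt3 (7.23 ± 0.22), and cmt3 was 16.4-fold above kyp, the widest gap between the mutants among the 8. It was not called in kyp, and its SE was the largest of the 8.

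AT4G18150, an unknown protein at chr4:10050222-10053801, has the longest model, at 3580 bp, and 3 probes. Its intensity was 1318 and 1110 in kyp, 7617 and 8287 in cmt3, and 99.8 and 101 in wild type. The order was the same as for AT3G32966 and AT5G28235, with no overlap between genotypes. It stood 3.59 ± 0.13 above wild type in kyp and 6.30 ± 0.13 in cmt3 (79.0-fold), and was 6.57-fold higher in cmt3 than in kyp. All 3 of these genes lay on 1 side in the kyp and cmt3 contrast, but that contrast is made of the arrays that chose them and supports nothing further.

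**Figure D2:**
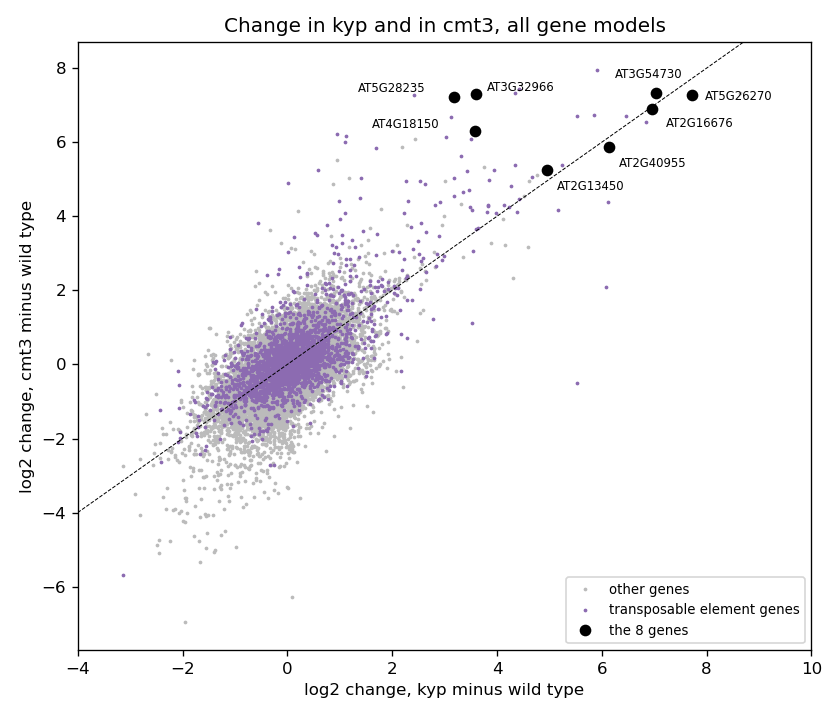
Log2 change of each gene model in kyp (horizontal axis) and in cmt3 (vertical axis), each minus the same wild type mean, with the 8 genes as black points, transposable element genes in purple and other genes in grey; the dashed line marks equal change. AT5G26270, AT3G54730, AT2G16676, AT2G40955 and AT2G13450 lie near the line, while AT3G32966, AT5G28235 and AT4G18150 lie well above it, at 3.19 to 3.60 in kyp and 6.30 to 7.30 in cmt3.

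The word "silent" can be used of wild type only in a limited sense. In both wild type arrays 6 of the 8 genes lay below the array's 25th percentile, an intensity of about 75.8. AT5G26270 lay at the 33.8 and 30.5 percentiles and AT4G18150 at the 29.2 and 29.1 percentiles. The pollen markers, for comparison of position, lay between the 10.8 and 25.6 percentiles in wild type. The highest seed, flower and root markers reached the 38.2, 46.8 and 41.0 percentiles in wild type, above all 8 genes. The files hold no background or detection values, so no gene is called absent. In kyp the 8 genes spanned the 40.5 to 93.6 percentiles and in cmt3 the 53.3 to 90.6 percentiles. A fold that begins so low on the scale is a fold of intensity. With intensities under the 25th percentile raised to it, the median difference became 4.53 in kyp and 6.06 in cmt3. AT2G40955 then stood at 4.50 in kyp and 4.22 in cmt3, and AT5G28235 at 2.42 in kyp and 6.46 in cmt3.

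The spread between the 2 arrays of a genotype was small beside these differences. The SD of log2 intensity ran from 0.011 to 0.29 in kyp, 0.061 to 0.29 in cmt3 and 0.014 to 0.30 in wild type over the 8 genes. The slide moved with the genotype, so within-slide values are given too. On slide 1, kyp replicate 1 stood 3.40 to 7.71 above the 2 wild type arrays on the log2 scale, with a median of 5.53. On slide 2, cmt3 minus the 1 kyp array was 3.75 for AT3G32966, 4.24 for AT5G28235 and 2.84 for AT4G18150, and between -0.45 and 0.36 for the other 5. No slide holds both cmt3 and wild type arrays. With the slide as a term in the fit, cmt3 minus wild type had a median of 6.91, from 5.13 to 7.64.

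Among the 27901 genes not described as transposable elements, the first 5 genes ranked 2 to 6 by their difference in kyp. Rank 1 was AT3G60955, a cytochrome P450 pseudogene, and ranks 7 and 8, just outside, were AT2G19850 (27.0-fold) and AT1G63540 (24.3-fold), beside AT2G13450 (31.0-fold) just inside. In cmt3, 6 of the 8 held ranks 2 to 7, with AT3G60955 again first, and AT4G18150 at rank 7 (79.0-fold) was followed by AT5G28810 (67.6-fold) and AT5G33250 (58.4-fold), which are not among the 8. AT2G40955 and AT2G13450 came in through kyp and held ranks 10 and 13 in cmt3. AT3G32966, AT4G18150 and AT5G28235 came in through cmt3 and held ranks 16, 17 and 20 in kyp.

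The position of the genes was not used to choose them. They lie on chromosomes 2, 3, 4 and 5, with 3 on chromosome 2. A transposable element gene lay within 2 kb of 4 of the 8 (50%), namely AT2G16676, AT2G13450, AT3G32966 and AT5G28235. The same held for 6.07% of 27740 nuclear genes not described as transposable elements, and for 13.1% of the 5911 of these in the lowest 25% of wild type intensity. AT3G32966 had 12 transposable element genes within 50 kb, as many as only 2.16% of those nuclear genes have or exceed. AT2G13450 had 6, AT5G26270 and AT5G28235 had 4 each, AT2G16676 had 3 and AT3G54730 had 1. AT2G40955 and AT4G18150 had 0, and their nearest such genes were 244671 and 118136 bp away. These values take the AT2G40955 model at its own position. Its signal may come from AT4G15096, whose distance to such genes is not given here. Both patterns of response thus include genes near transposable element genes and genes far from them. The count covers only elements that are measured as gene models, and shorter repeats are not analysed here.

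The neighbours were chosen by position and not by their own values. The genes they flank were chosen on these same arrays, so tests of the neighbours are not independent of that choice. The 8 genes have 17 measured neighbours, the nearest on each side plus any that overlap, and each comparison used the limma fit over all models. In cmt3, 2 of the 17 rose and none fell (11.8%, against 0.741% of all models called in either direction; 7 of 17 had an unadjusted p under 0.05, against 23.0%). In kyp 0 of the 17 were called (0.105% of all models; 6 of 17 had an unadjusted p under 0.05, against 10.2%). The median change of the 17 was -0.096 in kyp and -0.068 in cmt3, close to that of all models. Both called neighbours were LINE genes, that is, non-LTR retrotransposons that encode their own reverse transcriptase. Among the 17 were 6 transposable element genes, of which 2 were called in cmt3, and 11 other genes, of which 0 were. The share called among all transposable element genes is not given here. The 11.8% therefore does not set the neighbours apart from transposable element genes in general.

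AT2G16680, at chr2:7239374-7243365, begins 764 bp beyond AT2G16676. Its intensity was 465 and 581 in kyp, 485 and 382 in cmt3, and 32.6 and 18.9 in wild type, with no overlap between either mutant and wild type. It rose 17.4-fold in cmt3 (4.12 ± 0.32, adjusted p = 0.0283, limma). The kyp difference, 4.39 ± 0.32, missed the threshold (adjusted p = 0.061, limma). The copia element on the other side, AT2G16670, stood at -0.33 in kyp and -0.13 in cmt3 (adjusted p = 0.806 and 0.867, limma).

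AT2G13460, at chr2:5607388-5612675, begins 382 bp beyond AT2G13450. It gave 1180 and 1440 in kyp, 1629 and 1808 in cmt3, and 37.1 and 70.1 in wild type. It rose 33.7-fold in cmt3 (5.07 ± 0.34, adjusted p = 0.023, limma) and stood at 4.68 ± 0.34 in kyp (adjusted p = 0.061, limma). Its change in each mutant was close to that of AT2G13450. The gene on the other side of AT2G13450, AT2G13440, annotated as an oxidoreductase and 442 bp away, stood at 0.071 in kyp and 0.18 in cmt3 (adjusted p = 0.828 and 0.309, limma). Whether a gene and the LINE gene beside it are read as 1 transcript was not tested, since the files give neither strand nor probe positions. Leaving out any 1 array ended the cmt3 call of AT2G16680 (adjusted p up to 0.167, limma), and that of AT2G13460 except without wild type replicate 2 (0.0337). With the slide as a term neither was called (adjusted p = 0.421 and 0.382, limma), with differences of 3.80 and 4.79. The size of these changes and the kyp calls turn on how low values are treated. With low intensities floored at the 25th percentile, AT2G16680 stood at 2.78 in kyp and 2.51 in cmt3, and AT2G13460 at 4.10 in kyp and 4.50 in cmt3. With log2(intensity + 100), AT2G16680 stood at 2.31 in kyp and 2.08 in cmt3 (4.23-fold), and AT2G13460 at 3.20 in kyp and 3.57 in cmt3 (11.9-fold). Under both settings both genes were called in kyp as well as in cmt3 (adjusted p in kyp from 0.00519 to 0.0309, limma).

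**Figure D3:**
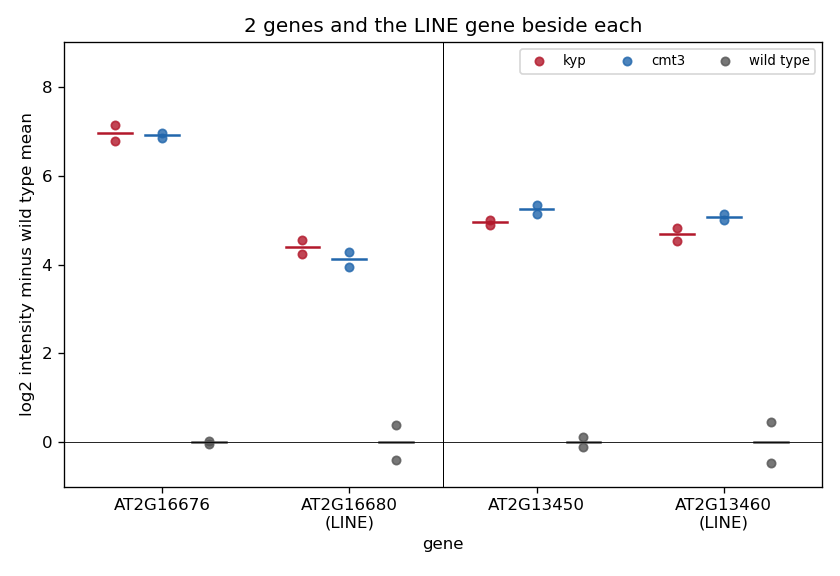
Log2 intensity minus the wild type mean of the same gene (vertical axis) for AT2G16676 and AT2G13450, each beside its LINE neighbour, with single arrays as points and means as short lines, in kyp, cmt3 and wild type. All 4 genes lie above wild type on every kyp and cmt3 array, by 4.12 to 6.96 on average.

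The other 15 neighbours were not called in either mutant. The Mutator-like gene AT5G28232 overlaps AT5G28235 by 29 bp, yet gave 22.3 and 19.4 in kyp, 20.3 and 23.2 in cmt3, and 20.7 and 23.5 in wild type. Its genotypes overlapped throughout, at -0.084 ± 0.14 in kyp and -0.022 ± 0.14 in cmt3. On the other side of AT5G28235, AT5G28237, annotated as a tryptophan synthase, went the other way. It gave 3486 and 1810 in kyp, 1276 and 266 in cmt3, and 11628 and 7745 in wild type. Both mutants lay below wild type, at -1.92 ± 0.85 in kyp and -4.03 ± 0.85 in cmt3, but the arrays of a genotype differed widely and neither difference passed (adjusted p = 0.54 and 0.113, limma). The Mutator-like gene AT3G32968, 451 bp from AT3G32966, stood at 0.033 in kyp and -0.35 in cmt3 (adjusted p = 0.989 and 0.689, limma).

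Beside AT5G26270, AT5G26280 stood at 0.68 ± 0.12 in kyp and 0.52 ± 0.12 in cmt3 without passing (adjusted p = 0.27 and 0.119, limma). RefSeq also places a long non-coding RNA gene, AT5G04225, over AT5G26270; it has no model on the array, so its part in the signal was not tested. Beside AT3G54730, AMP1, a peptidase gene that restrains meristem growth, stood at -0.32 in kyp and -0.068 in cmt3 (adjusted p = 0.505 and 0.788, limma). Beside AT2G40955, the transcription factor gene BZIP17 stood at 0.040 and -0.28 (adjusted p = 0.923 and 0.201, limma). Beside AT4G18150, the potassium channel gene KCO6 stood at -0.61 and -0.71 and SSP4b at -0.75 and -0.71, and none passed (adjusted p from 0.102 to 0.449, limma). Widened to all 81 models within 20 kb, the count in cmt3 was 3 higher and 0 lower, and in kyp 0. The cmt3 share was 3.7%, against 0.741% of all models called in either direction. All 3 called were transposable element genes, which made up 12 of the 81 models. With no share given for all transposable element genes, the 3.7% does not set these windows apart from such genes in general. An unadjusted p under 0.05 was found for 17 of the 81 in kyp, against 10.2% of all models, and for 26 in cmt3, against 23.0%. The third called gene was the CACTA-like AT3G32950, to the left of AT3G32966. It stood at 0.79 ± 0.18 in kyp and 2.20 ± 0.18 in cmt3 (adjusted p = 0.366 and 0.0328, limma). In cmt3, 6 of the 81 differed from wild type by 4-fold or more, and 3 of these were transposable element genes. The others did not pass. AT2G16690, 5350 bp from AT2G16676, stood at 1.56 in kyp and 2.48 in cmt3 (adjusted p = 0.387 and 0.0927, limma). AT5G28237 and WRKY28 (AT4G18170) were lower in cmt3, at -4.03 and -2.03 (adjusted p = 0.113 and 0.104, limma).

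**Figure D4:**
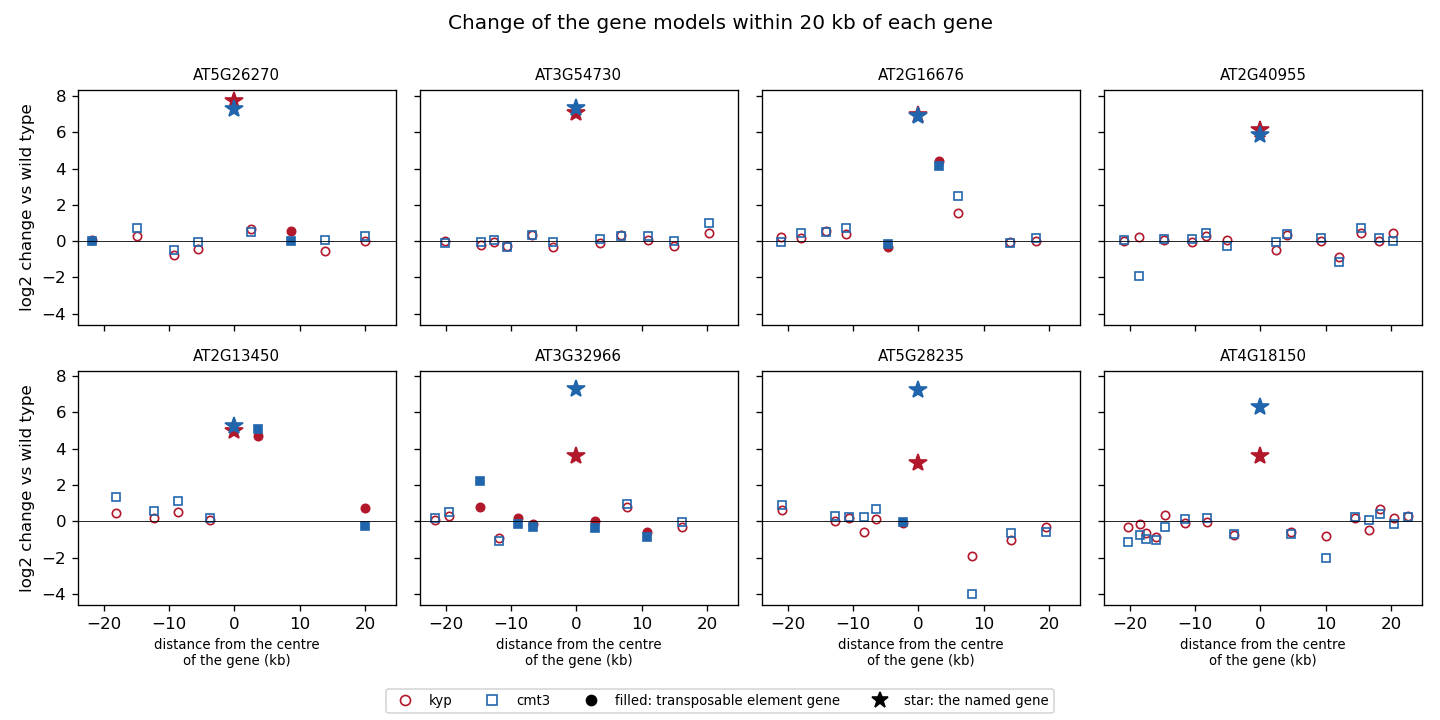
Log2 change from wild type (vertical axis) of every measured gene model within 20 kb of each of the 8 genes, by distance between gene centres in kb (horizontal axis), with kyp as red circles, cmt3 as blue squares, transposable element genes filled and the named gene as a star. The LINE genes beside AT2G16676 and AT2G13450 lie at 4.12 to 5.07.

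By likeness of profile over the 6 arrays, the 5 genes nearest to the mean of the 8 were all retrotransposon genes. Likeness was the Euclidean distance between log2 intensities after subtraction of each gene's wild type mean, and it uses the same values as the choice of genes. The copia gene AT1G34090 was nearest (distance 0.90), at 5.52 ± 0.44 in kyp and 6.71 ± 0.44 in cmt3. AT5G19097 (copia, 1.64), AT3G28915 (LINE, 1.82), AT3G29078 (LINE, 1.87) and AT3G44215 (copia, 1.88) followed. The 8 genes themselves lay at distances of 1.58 (AT2G40955) to 3.40 (AT5G26270), so AT1G34090 was nearer to the mean profile than any of them. In 4 of these 5 genes every cmt3 array lay above every kyp array, the exception being AT5G19097. The mean profile of the 8 itself stands higher in cmt3 than in kyp. The order thus follows largely from how the 5 were picked, and nothing is read from it. Kyp minus cmt3 was -2.99 for AT3G29078, -3.02 for AT3G44215, -1.19 for AT1G34090 and -0.89 for AT3G28915.

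A list of 19 genes covered the silencing pathway (DNA methyltransferases, H3K9 methyltransferases, RNA-directed DNA methylation and related factors). In cmt3, 0 of the 19 were higher and 1 was lower, namely CMT3 itself, and 0 were called in kyp. Of all models, 0.56% were called higher and 0.181% lower in cmt3, and 0.105% in either direction in kyp. With shares this small, nothing is read from the 0 counts. IBM1, a histone demethylase gene, stood at -0.61 in kyp and -0.77 in cmt3 (adjusted p = 0.333 and 0.0882, limma). The list had a median of 0.064 in kyp and 0.053 in cmt3. Of 6 listed loci that DNA methylation can silence, 1 rose in kyp and 3 rose in cmt3, and none fell. Of all models, 0.0988% were called higher in kyp and 0.56% in cmt3. QQS, a regulator of starch content, rose in both (2.64 and 2.29, adjusted p = 0.0211 and 0.0159, limma). The Mutator element AtMu1 (3.67) and SDC, an F-box gene (2.40), rose in cmt3 (adjusted p = 0.0246 and 0.0432, limma) and stood at 3.60 and 0.81 in kyp without passing (adjusted p = 0.061 and 0.408, limma). FWA, SUPERMAN and PAI2 were not called, and stood at -1.10, 0.51 and -0.58 in kyp and at -0.30, -0.0008 and -0.83 in cmt3. PAI2 gave 4228 and 3538 in wild type, so it was not silent there. Methylation was not measured, so these 3 cannot be taken as silenced loci that failed to respond. The medians of this list were 0.66 in kyp and 1.15 in cmt3.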

How the data were processed

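Each array (NimbleGen, 1 colour, Cy3) gave 30361 gene models an intensity, each from 1 to 3 probes. The intensities were deposited after RMA normalization by the authors, per the labels, and are on a linear scale; the sources used here name no RMA settings, scanner or software. The deposited series table held the same values (0 differed by more than 0.001). The column of standard errors was not used. Arrays give no counts, and their number limits the precision.

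Intensities were taken to log2 and compared by a single limma model (limma 3.58.1, R 4.3.3, default eBayes) over all 6 arrays with no block, filter or pseudocount, adjusted by Benjamini-Hochberg over all models and called under 0.05. The fit had 3 residual and 1.41 prior degrees of freedom. It was also run on simulated data, which held no slide effect and checked only that added changes were recovered in size. That run does not bear on the calls. Errors of log2 changes are limma standard errors. Positions and descriptions come from the files. Symbols, biotypes, transcript numbers and the order and overlap of unmeasured neighbours come from RefSeq (TAIR10.1), which matched 29976 loci; none of its coordinates is printed. Descriptions naming a transposon or element family marked 2460 transposable element genes. The rule for named genes took the 8 genes, their neighbours, the 5 most alike profiles, the nearest ranks outside and 2 lists. Protein relatives were to be named too, but sequences were not used here. The 8 genes, lists and rule were chosen with earlier results of these data known. AT3G32950, AT2G16690 and WRKY28 were named after their values were seen. Alternatives were other normalizations, a floor, a pseudocount, blocks, left-out arrays, moderation settings and thresholds.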

Additional observations from a re-analysis of the deposited data

How the results depend on the processing

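The number of genes called in kyp against wild type (32) was 102 at an adjusted p under 0.10, 58 with low intensities floored, 85 with an intensity trend, 77 with log2(intensity + 100) and 63 without the lowest 25% of genes. It was 0 with the slide as a block, within slide 1 and without any 1 array (0 to 0). In cmt3 against wild type (225) the counts were 1266, 781, 2272, 1107 and 502 for the same 5 settings, 0 with the slide as a block, and 32 (without wild type replicate 1) to 84 (without wild type replicate 2) when 1 array was left out. In kyp against cmt3 (9) they were 19, 66, 24, 51 and 17, then 0 with the slide as a block, within slide 2 and without any 1 array (0 to 0). With the replicate number as a block the 3 counts were 0, 69 and 0. The values gave no sign that equal numbers pair the samples, though 2 arrays a genotype cannot exclude it. Deviations of same-numbered arrays correlated at -0.123 (kyp and wild type), 0.0039 (cmt3 and wild type) and -0.039 (kyp and cmt3). With crossed replicate numbers, a pairing chosen after seeing the data, 4 genes were called in kyp. Fits with a block or 5 arrays have fewer residual degrees of freedom.

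The median difference of the 8 genes from wild type, 5.55 in kyp and 7.07 in cmt3, became 4.53 and 6.06 with the floor and 3.73 and 5.21 with log2(intensity + 100), since both settings raise low values. Under the other alternatives it moved by less than the replicate spread (the root of the summed squared SDs of both genotypes, median over the 8 genes 0.18 in either comparison), with 6.91 in cmt3 with the slide as a block and 5.53 to 5.56 in kyp and 6.98 to 7.07 in cmt3 when 1 array was left out. Of the differences of single genes from wild type, 0 of 104 values in kyp and 0 of 96 in cmt3 changed sign. Between the mutants, AT2G16676 (0.053) changed sign without cmt3 replicate 2 (-0.0080) and without kyp replicate 2 (-0.12), in a range of -0.12 to 0.23 when 1 array was left out. The 2 calls among the neighbours became 4 with the floor and 4 with the pseudocount, the added calls being AT2G16680 and AT2G13460 in kyp, 1 with the replicate block, 0 with the slide as a block, and 0 to 1 when 1 array was left out. The CMT3, QQS, AtMu1 and SDC calls in the lists kept their direction in all alternatives and lost the threshold in 8 of 12 in cmt3 (9 of 13 for QQS in kyp).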

Other observations

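A cysteine-type peptidase is also the description of 71 other models on the array, looked at after the value of AT5G28235 was seen and with no test of the set. At least 4-fold above wild type were 4 of them in cmt3 and 0 in kyp, and none was 4-fold lower in either. The limma fit called 2 of the 71 higher in cmt3 and 0 in kyp, against 0.56% and 0.0988% of all models. The share of all models at 4-fold is not given here, so nothing is read from these counts. The median of the 71 was -0.013 in kyp and 0.14 in cmt3. AT5G45570 (chr5:18489528-18492801) gave 131 and 67.3 in kyp, 1293 and 1440 in cmt3, and 42.5 and 40.5 in wild type. AT4G08430 (chr4:5347393-5350433) gave 345 and 173 in kyp, 1241 and 1376 in cmt3, and 55.7 and 89.5 in wild type. Both were brighter in cmt3 than in kyp on every array. AT3G44500 and AT1G32840 stood at 0.86 and 0.38 in kyp and at 2.51 and 2.39 in cmt3, and their cmt3 arrays lay above all kyp and wild type arrays. These 4 genes are named for their change in cmt3, so nothing is read from the order of cmt3 and kyp.

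The second locus that the model of AT2G40955 stands for, AT4G15096, has its own measured neighbours by RefSeq gene order. LigB (AT4G15093), an oxidoreductase gene, stood at 0.15 in kyp and 0.25 in cmt3, and scpl30 (AT4G15100), a serine carboxypeptidase gene, at -0.018 and 0.12. Neither was called (adjusted p from 0.278 to 0.99, limma).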
